A study of Mus musculus with 6 samples.

Results

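TGF-beta signalling was described in carcinogen-treated mouse esophagus through 9 genes: the ligand genes Tgfb1, Tgfb2 and Tgfb3, the receptor genes Tgfbr1 and Tgfbr2, the latent-complex gene Ltbp1, the matrix target genes Tgfbi and Tnc, and the activin gene Inhba. They were picked by symbol as ligands, receptors and targets of the pathway, by a rule that uses no measured value but with earlier results of these data known, and each symbol matched 1 of the 54232 gene IDs counted in every library. The tested libraries came from 3 samples of mice injected with DTA-1, an agonist antibody against GITR, a co-stimulatory receptor of T cells, and were set against 3 samples of mice injected with an isotype control antibody. All mice of both groups had drunk 4-NQO (4-nitroquinoline 1-oxide, a carcinogen that induces squamous tumors of the esophagus) at 100 µg/ml for 16 weeks from 8 weeks of age, then plain water for 12 weeks. Antibody was given at 10 µg by intraperitoneal injection 2 times a week from 2.5 weeks before sacrifice. Esophageal tissue had been enriched for invading cells and polyA RNA was sequenced. Neither strain nor sex is given in the labels, and no untreated esophagus was analysed here. Whether the 3 libraries of a group are 3 mice is not stated, so p-values reflect only how far these libraries vary, and part of that may be technical.

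TGF-beta is secreted as a latent complex in which its own propeptide stays bound to the cytokine and is tethered to the matrix by latent TGF-beta binding proteins. Once released, the ligand brings together the type II receptor (Tgfbr2) and the type I receptor (Tgfbr1), whose kinase phosphorylates SMAD2 and SMAD3. These join SMAD4 and act on target genes, among them matrix genes and feedback inhibitors. In squamous epithelium the pathway is known to restrain keratinocyte growth, while in stroma it drives fibroblasts to deposit matrix. Activins signal through related receptors to the same SMADs.

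Libraries held 23147873 to 29065162 counts. At these depths 3 reads of a gene correspond to 0.108 to 0.141 CPM (counts scaled to a library of 1000000 reads, with library sizes adjusted by TMM), a floor that covers counting error only, and every one of the 9 genes had at least 154 counts in each library. Squamous, striated muscle and stromal markers were present in all 6 libraries, and no marker of the 13 lists looked at was at 0 throughout. The 10 striated muscle markers summed to 98498, 144998 and 104230 CPM in DTA-1 libraries 1, 2 and 3, against 59460, 43434 and 94286 CPM in isotype libraries 1, 2 and 3. The 5 neutrophil markers summed to 927.6 to 3310 CPM in DTA-1 and 3696 to 4797 CPM in isotype libraries, and the 7 T cell markers to 5.18 to 9.8 CPM in DTA-1 and 10.4 to 20.3 CPM in isotype libraries. The 5 B lineage markers summed to 4.09 to 7.66 CPM in DTA-1 and 0.216 to 2.26 CPM in isotype libraries, so these 3 sums and that of striated muscle did not overlap between the groups. All 7 basal and all 7 differentiated squamous markers had fitted fold changes below 0, with sums that overlapped. The part of these differences in the values of the 9 genes and the other pathway genes was not tested. In such bulk tissue, fewer cells of a type and less RNA per cell cannot be told apart.

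None of the 9 genes differed between DTA-1 and isotype tissue beyond the spread between libraries. By edgeR's quasi-likelihood test with Benjamini-Hochberg adjustment over 15763 genes, 0 of the 9 passed an adjusted p of 0.05, where 0% of all tested genes did. At an unadjusted p under 0.05 edgeR also counted 0 of the 9, against 12.7% of all tested genes (5.21% higher and 7.52% lower with DTA-1). DESeq2 called 0 of the 9, against 1.12% of the 16084 genes it tested, and limma-voom called 0 of the 9 and 0% of all tested genes. In each of the 9 genes the values of the 2 groups overlapped, while 18% of all tested genes had no overlap (8.6% higher and 9.38% lower with DTA-1). Fitted fold changes were below 0 for 6 of the 9, with a median of -0.36 (log2, DTA-1 over isotype), and for 52.9% of all tested genes, with a median of -0.03. Single libraries set the median of the 9: it was -0.05, with 5 of 9 below 0, without isotype library 1, and -0.76, with 6 of 9 below 0, without DTA-1 library 3. Only Tgfb3, Tgfbr1 and Tgfbr2 had fitted fold changes above 0, and that of Tgfbr2 turned negative when libraries were scaled by their totals alone.

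**Figure D1:**
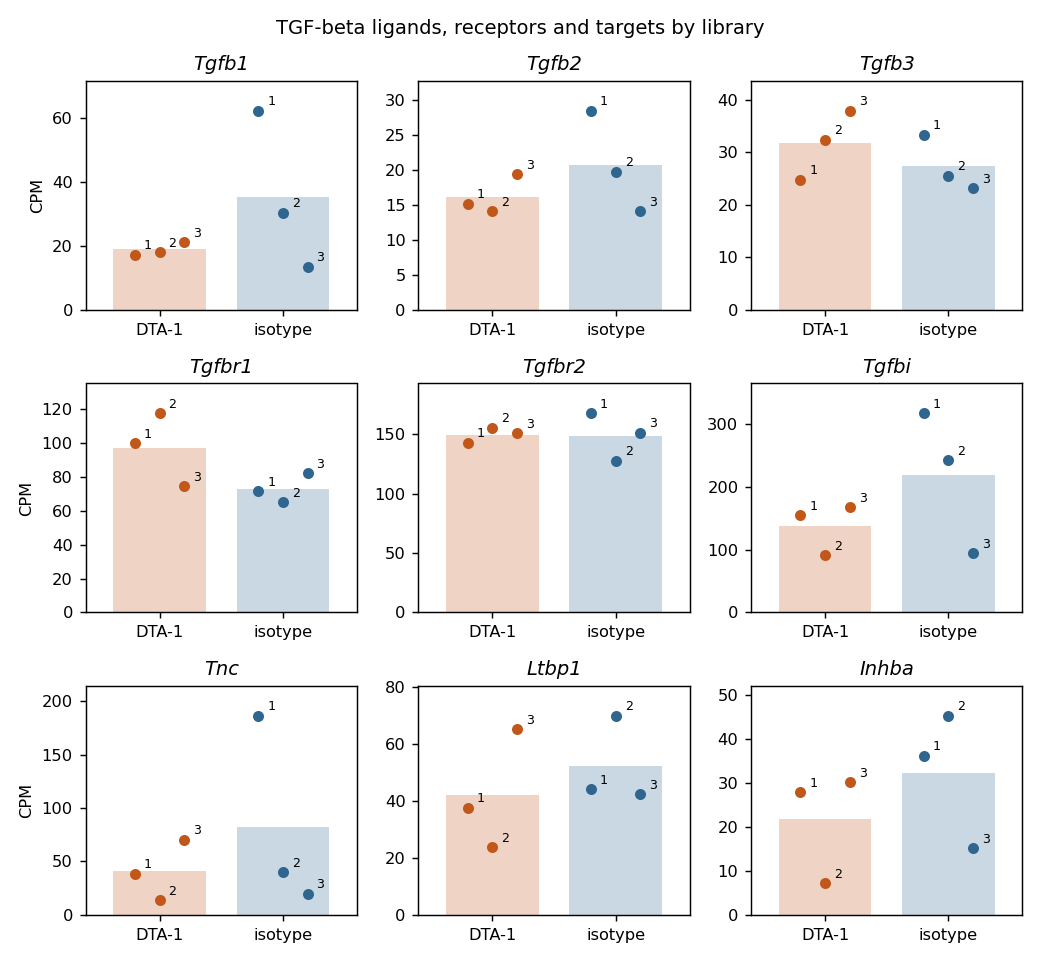
CPM of the 9 genes (vertical axes, from 0) in DTA-1 libraries (orange, left) and isotype libraries (blue, right); points are libraries with their replicate number and bars are group means (n = 3 each). Isotype library 1 is the highest of the 6 for Tgfb1, Tgfb2, Tgfbr2, Tgfbi and Tnc, while Tgfbr2 is nearly level in all 6.

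Among the ligands, Tgfb1, the most widely expressed isoform and a product of immune, stromal and epithelial cells, had the largest fitted difference. Tgfb1 (ENSMUSG00000002603, GRCm38, chr7:25687002-25705077, plus strand) stood at 17.3, 18.1 and 21.2 CPM in DTA-1 libraries 1, 2 and 3, against 62.1, 30.4 and 13.5 CPM in isotype libraries 1, 2 and 3. The 3 DTA-1 libraries lay close together, inside an isotype range that reached both higher and lower. The means were 18.9 ± 2.07 CPM in DTA-1 and 35.3 ± 24.7 CPM in isotype tissue (SD, n = 3 each). This gave a log2 fold change of -0.90 ± 0.49 (SE), with a 95% interval of -2.07 to 0.26 and an adjusted p of 0.437 in edgeR. Isotype library 1 carried most of it: without that library the fold change was -0.20, and without isotype library 3 it was -1.27. Without isotype library 3, DESeq2 called Tgfb1 lower with an adjusted p of 0.0244, in a refit that called 6.1% of all tested genes, whereas edgeR gave 0.224.

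Tgfb2 and Tgfb3 had smaller fitted differences. Tgfb2, an isoform of epithelial and developing tissues that needs the co-receptor betaglycan for high-affinity binding (chr1:186622792-186705989, minus strand), stood at 15.2, 14.1 and 19.4 CPM in the DTA-1 group, against 28.5, 19.8 and 14.1 CPM in the isotype group (libraries 1, 2 and 3 in each). Again isotype library 1 was highest, and the others spanned 14.1 to 19.8 CPM. Its log2 fold change was -0.36 ± 0.29 (SE), and -0.05 without isotype library 1. Tgfb3, an isoform prominent in mesenchyme (chr12:86056745-86079041, minus strand), stood at 24.8, 32.4 and 37.9 CPM in the DTA-1 group and at 33.4, 25.6 and 23.2 CPM in the isotype group (libraries 1, 2 and 3). Here the highest library was DTA-1 library 3 and the lowest isotype library 3. Its log2 fold change was 0.21 ± 0.22 (SE), with 0.06 without DTA-1 library 3 and 0.39 without isotype library 1. The adjusted p in edgeR was 0.57 for Tgfb2 and 0.664 for Tgfb3.

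The promoters of the ligand genes differ in makeup, as the windows of Tgfb1 and Tgfb2 show. RefSeq entries on GRCm38.p6 matched 8 of the 9 genes by symbol, all but Tgfb3, and each window holds the 250 bases before the annotated start, read on the gene's strand. Capitals mark TATAAA, the core of the TATA box, and GGGCGG, the GC box bound by Sp1-type factors, on either strand.
Tgfb1: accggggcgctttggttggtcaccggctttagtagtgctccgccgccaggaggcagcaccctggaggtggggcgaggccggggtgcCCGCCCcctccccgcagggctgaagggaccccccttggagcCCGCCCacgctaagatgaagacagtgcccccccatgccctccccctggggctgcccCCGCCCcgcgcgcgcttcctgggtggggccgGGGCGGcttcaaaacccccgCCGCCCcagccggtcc
Tgfb2: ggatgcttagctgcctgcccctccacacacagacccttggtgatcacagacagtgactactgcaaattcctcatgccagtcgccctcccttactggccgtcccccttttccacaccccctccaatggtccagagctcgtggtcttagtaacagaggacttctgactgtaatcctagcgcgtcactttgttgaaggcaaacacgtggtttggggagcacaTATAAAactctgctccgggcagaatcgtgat
The Tgfb1 window (chr7:25686752-25687001, plus strand) was 75.2% G or C and held GGGCGG at 5 places and no TATAAA. The Tgfb2 window (chr1:186705990-186706239, minus strand) was 53.6% G or C, close to the median of 52.4% over 32851 mouse windows, and held TATAAA with its first base 31 bases before the start and no GGGCGG. Of all windows, 12.4% held TATAAA, 32.7% held GGGCGG and 1.93% held it at 5 or more places. These matches describe the letters and no binding was measured.

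The ligand makeup within a library does not depend on library scaling. Dividing counts by the merged exon length of each gene, Tgfb1 made up 25.6%, 23% and 22.4% of the summed ligand level in DTA-1 libraries 1, 2 and 3, against 45.4%, 35.4% and 22.3% in isotype libraries 1, 2 and 3. The Tgfb3 share was 54.8%, 61.4% and 59.8% in the DTA-1 group, against 36.4%, 44.4% and 57.3% in the isotype group. Tgfb2 stayed between 15.6% and 20.4% in all 6. Isotype library 1 was thus the only one with more Tgfb1 than Tgfb3, and the Tgfb1 share of isotype library 3 lay just below those of the DTA-1 libraries. The Tgfb1 share averaged 23.7% ± 1.71 in the DTA-1 group and 34.4% ± 11.6 in the isotype group (SD, n = 3 each), a difference of -10.7 percentage points with an exact two-sided permutation p of 0.40 (0.40 adjusted over the 3 isoforms), where the smallest p that 3 against 3 allows is 0.10. For Tgfb3 the difference was 12.6 points and for Tgfb2 -1.87 points, both with an exact permutation p of 0.20 (0.30 adjusted). Without isotype library 1 the Tgfb1 difference was -5.21 points, and without isotype library 3 it was -16.7 points. With the longest transcript of each gene as length, the Tgfb1 share was 39.5%, 36.3% and 35.5% in DTA-1 libraries 1, 2 and 3, against 61%, 50.8% and 35.3% in isotype libraries 1, 2 and 3. The Tgfb3 share was then 43.1%, 49.5% and 48.2% in the DTA-1 group, against 25%, 32.5% and 46.2% in the isotype group, so isotype library 2 was the only library in which the leading isoform changed with the length.

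**Figure D2:**
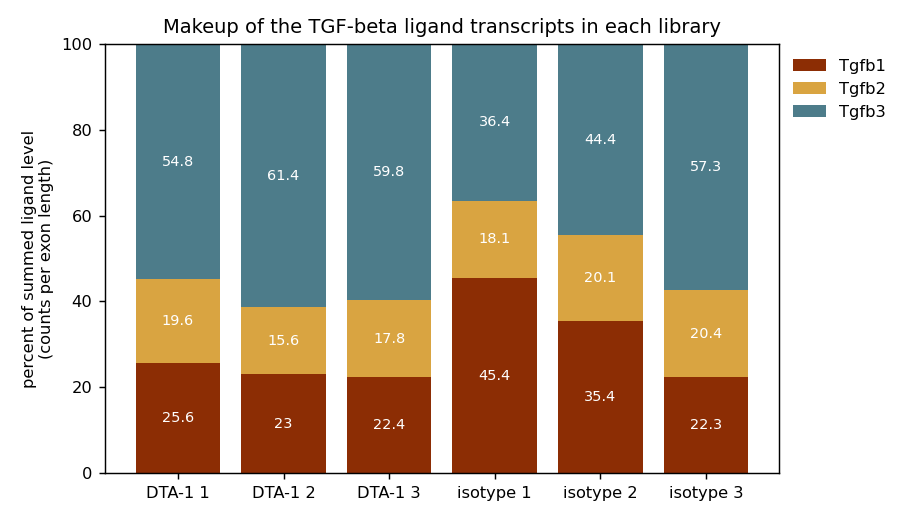
Percent of the summed ligand level (vertical axis, counts divided by merged exon length) taken by Tgfb1, Tgfb2 and Tgfb3 in each of the 6 libraries, DTA-1 libraries on the left. The Tgfb1 share is 22.4% to 25.6% in the DTA-1 group and 22.3% to 45.4% in the isotype group.

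Tgfbr2 was the steadiest of the 9 genes across the 6 libraries, while the spread of Tgfbr1 was close to that of Tgfb3. Tgfbr2, which binds ligand first (chr9:116084293-116175360, minus strand), stood at 142.7, 155.6 and 150.6 CPM in the DTA-1 group and 167.5, 127.5 and 151.3 CPM in the isotype group (libraries 1, 2 and 3). The highest library exceeded the lowest by 1.31-fold, against a median of 1.73-fold over 9704 tested genes with a mean of 10 CPM or more. Its log2 fold change was 0.01 ± 0.16 (SE), and the 95% interval of 0.771-fold to 1.31-fold bounds what these libraries allow. Tgfbr1, the signalling kinase of the pair (chr4:47353222-47414931, plus strand), stood at 99.8, 117.6 and 74.4 CPM in the DTA-1 group, against 71.7, 65 and 82.1 CPM in the isotype group. DTA-1 libraries 1 and 2 exceeded every isotype library and DTA-1 library 3 did not. It averaged 97.3 ± 21.8 CPM in DTA-1 and 72.9 ± 8.62 CPM in isotype tissue (SD, n = 3 each). The log2 fold change of Tgfbr1 was 0.42 ± 0.20 (SE), with an unadjusted p of 0.0805, the smallest of the 9, and an adjusted p of 0.41 in edgeR. Its unadjusted edgeR p was 0.041 with upper quartile scaling and 0.0206 without DTA-1 library 3, with adjusted p of 0.334 and 0.642. Across libraries the receptor pair had no shared order: DTA-1 library 2 was highest for Tgfbr1 and isotype library 1 for Tgfbr2.

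Ltbp1 encodes a binding protein that tethers latent TGF-beta to the matrix (chr17:75005568-75392512, plus strand). It stood at 37.6, 23.8 and 65.3 CPM in DTA-1 libraries 1, 2 and 3, against 44.2, 69.9 and 42.4 CPM in isotype libraries 1, 2 and 3. The highest values came from 1 library of each group, DTA-1 library 3 and isotype library 2. Ltbp1 had a log2 fold change of -0.30 ± 0.38 (SE), with an adjusted p of 0.722 in edgeR. It was -0.01 without isotype library 2 and -0.76 without DTA-1 library 3. The smooth muscle markers were summed over 6 genes and came to 2933, 752.5 and 8218 CPM in the DTA-1 group, against 716.8, 7510 and 5332 CPM in the isotype group (libraries 1, 2 and 3). DTA-1 library 3 and isotype library 2 were also the highest in this sum, but isotype library 1 was the lowest in it and mid-range for Ltbp1. The marker scores with the smallest difference from Ltbp1 were endothelial and macrophage, at 0.57 and 0.61 (root mean square of centred log2 values), against its own spread of 0.52. That difference also grows with the size of swings, so it does not compare the order of libraries alone. The smooth muscle score swung more widely, from -2.089 to 1.694, against -0.895 to 0.654 for Ltbp1. The part of these cell types in the Ltbp1 values was not tested.

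The matrix target genes Tgfbi and Tnc had lower means with DTA-1 and wide spreads. Tgfbi, named for its induction by TGF-beta and coding for a secreted adhesion protein of the matrix (chr13:56609523-56639562, plus strand), stood at 154.5, 90.7 and 167.6 CPM in DTA-1 libraries 1, 2 and 3, against 316.9, 242.7 and 94.7 CPM in isotype libraries 1, 2 and 3. Isotype libraries 1 and 2 exceeded every DTA-1 library, whereas isotype library 3 lay next to the lowest. Tgfbi averaged 137.6 ± 41.1 CPM in DTA-1 and 218.1 ± 113.1 CPM in isotype tissue (SD, n = 3 each). Its log2 fold change was -0.66 ± 0.45 (SE), with an adjusted p of 0.513 in edgeR. It was -0.28 without isotype library 1 and -1.0 without isotype library 3, where edgeR's unadjusted p was 0.0166 and its adjusted p 0.231.

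Tnc encodes tenascin-C, a matrix glycoprotein of wound and tumor stroma (chr4:63959785-64047015, minus strand), and varied most of the 9. Its levels were 38.7, 13.9 and 70.4 CPM in DTA-1 libraries 1, 2 and 3, against 186.3, 40.2 and 19.9 CPM in isotype libraries 1, 2 and 3. The ratio of the highest to the lowest library was 13.4, and 1.58% of the 9704 tested genes with a mean of 10 CPM or more had a ratio above 10. Tnc averaged 41 ± 28.3 CPM in DTA-1 and 82.2 ± 90.8 CPM in isotype tissue (SD, n = 3 each). Tnc had a log2 fold change of -1.0 ± 0.89 (SE), with a 95% interval of -3.10 to 1.09. It turned to 0.46 without isotype library 1. The gene whose pattern over the 6 libraries came closest to that of Tnc, among 9891 candidates, was Postn, which encodes the matrix protein periostin: their centred log2 CPM differed by 0.40 (root mean square), against a spread of 1.22 for Tnc itself. Postn stood at 44.9, 32 and 144.1 CPM in the DTA-1 group and 433.4, 107.9 and 48.6 CPM in the isotype group.

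Inhba, the activin A subunit gene (chr13:16011851-16031621, plus strand), stood at 27.9, 7.26 and 30.2 CPM in DTA-1 libraries 1, 2 and 3, against 36.2, 45.3 and 15.2 CPM in isotype libraries 1, 2 and 3. DTA-1 library 2 was lowest and isotype library 2 highest, a ratio of 6.24. Inhba had a log2 fold change of -0.56 ± 0.58 (SE), with an adjusted p of 0.657 in edgeR. It was -0.15 without DTA-1 library 2 and -0.88 without isotype library 3.

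Tnc and Inhba, the pair with the widest spread, are shown by their promoters because both windows hold TATAAA, as does that of Tgfb2. The windows are those of the first listed start, with the same marking.
Tnc: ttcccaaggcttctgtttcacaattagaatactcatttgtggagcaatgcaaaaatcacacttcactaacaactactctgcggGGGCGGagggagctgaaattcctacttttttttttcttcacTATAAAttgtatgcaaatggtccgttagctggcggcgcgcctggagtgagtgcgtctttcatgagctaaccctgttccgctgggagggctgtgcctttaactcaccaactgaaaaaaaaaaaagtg
Inhba: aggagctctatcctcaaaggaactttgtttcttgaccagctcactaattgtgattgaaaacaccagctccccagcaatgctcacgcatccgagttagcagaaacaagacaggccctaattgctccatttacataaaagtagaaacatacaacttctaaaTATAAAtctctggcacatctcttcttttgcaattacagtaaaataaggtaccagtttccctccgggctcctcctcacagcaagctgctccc
TATAAA began 126 bases before the start in Tnc (chr4:64047016-64047265, minus strand), which also held 1 GGGCGG. From the other listed start of Tnc, TATAAA began 205 bases before. In Inhba (chr13:16011601-16011850, plus strand) TATAAA began 91 bases before the start, and the window held no GGGCGG. In both genes TATAAA lay further from the start than the 31 bases of Tgfb2. Whether it acts as a TATA box in either gene was not tested. Any link between these letters and the spread was not tested. The windows were 44.8% G or C in Tnc and 43.2% in Inhba. Of the 8 genes with an entry, 3 held TATAAA and 4 held GGGCGG in at least 1 window.

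**Figure D3:**
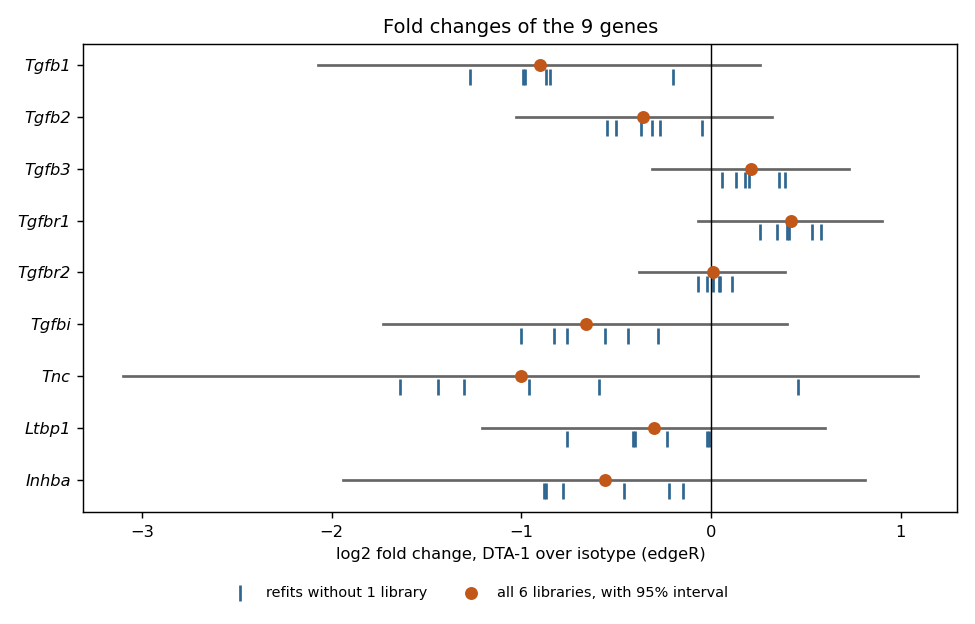
Log2 fold change, DTA-1 over isotype, of each gene from edgeR with all 6 libraries (orange points, lines for the 95% interval) and without each library in turn (blue ticks). All 9 intervals span 0, and the ticks of Tnc reach from -1.64 to 0.46.

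Per kilobase of merged exon, averaged over the 6 libraries, levels ran from 47.2 CPM per kb for Tgfbi through 18.2 for Tgfbr2, 13 for Tgfbr1, 8.74 for Tgfb3, 7.92 for Tnc, 5.38 for Tgfb1, 4.41 for Ltbp1 and 4.22 for Inhba to 3.2 CPM per kb for Tgfb2. From Tgfb3 down to Tgfb2, neighbours in this order differed by less than the SD over the 6 libraries of at least 1 of the 2 genes. With the longest transcript as length, Tgfb1 stood at 10.5 CPM per kb and moved above Tgfb3 (8.74). Averaged over the 6 libraries, both receptor transcripts stood above each ligand per length, by either length. That did not hold in the isotype group alone by the longest transcript. There Tgfb1 averaged 35.3 CPM over 2573 bases and Tgfbr1 72.9 CPM over 5756 bases, so Tgfb1 stood higher per length.

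The libraries ranked differently from gene to gene, and isotype library 1 led most often. It was the highest of the 6 for 5 of the 9 genes, against 25.5% of all tested genes. DTA-1 library 2 was the lowest for 5, though for Tgfb2 it was level with isotype library 3 at 14.1 CPM. How often each library was lowest over all tested genes was not counted. Isotype library 1 also had the highest sums of fibroblast, macrophage and basal squamous markers. Its neutrophil score was the highest too, but the neutrophil sum was highest in isotype library 2 (4797 CPM, against 3884 CPM in isotype library 1). The 8 fibroblast markers summed to 833.9, 1478 and 2053 CPM in DTA-1 libraries 1, 2 and 3, against 3207, 1307 and 949.2 CPM in isotype libraries 1, 2 and 3. Of these markers 3 of 8 had fitted fold changes below 0. The 8 macrophage markers, 7 of them with fitted fold changes below 0, summed to 142.1, 231.3 and 355.6 CPM in the DTA-1 group, against 475.9, 337.3 and 137.5 CPM in the isotype group. The 7 basal squamous markers summed to 10948, 3237 and 4157 CPM in the DTA-1 group, against 16510, 9132 and 4562 CPM in the isotype group. The Tgfb1, Tgfbi and Tnc values share their highest library with all 3 sums. The part of these cell types in the values was not tested.

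Set beside the scores of the 13 marker lists, Tgfb1 lay nearest to the macrophage score, at 0.37 (root mean square difference of centred log2 values). Its own spread was 0.72, and the fibroblast score came next, at 0.44. Tgfbi was also nearest to the macrophage score, at 0.43 against 0.66, with the fibroblast score next at 0.56. Tgfb3 lay nearest to the score of 6 endothelial markers, at 0.12 against 0.26. Tgfbr1 lay nearest to the striated muscle score, at 0.31 against 0.29. For Tgfb2 (macrophage, 0.37 against 0.36) and Tgfbr2 (endothelial, 0.28 against 0.12) even the nearest score differed by more than the gene's own spread. Tnc lay at 0.87 from both the fibroblast and the macrophage score, against 1.22, and Inhba at 0.78 from the macrophage score, against 0.88. The root mean square difference also grows with the size of swings, so it does not compare the order of libraries alone. The striated muscle score ran from -0.707 to 0.771 and Tgfbr1 from -0.358 to 0.498, both highest in DTA-1 library 2. The part of striated muscle in the Tgfbr1 values was not tested. The single genes closest in pattern were Bmp1 and Ptpn6 for Tgfb1 (0.13 and 0.15), Aldh16a1 for Tgfb2 (0.05), Mad2l2 for Tgfb3 (0.03), Zfp617 for Tgfbr1 (0.06), Sgms1 for Tgfbr2 (0.04), Mthfd2 for Tgfbi (0.19), Cacnb3 for Ltbp1 (0.12) and Pfkp for Inhba (0.32). With 6 libraries and 9891 candidates these are descriptions of the libraries.

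**Figure D4:**
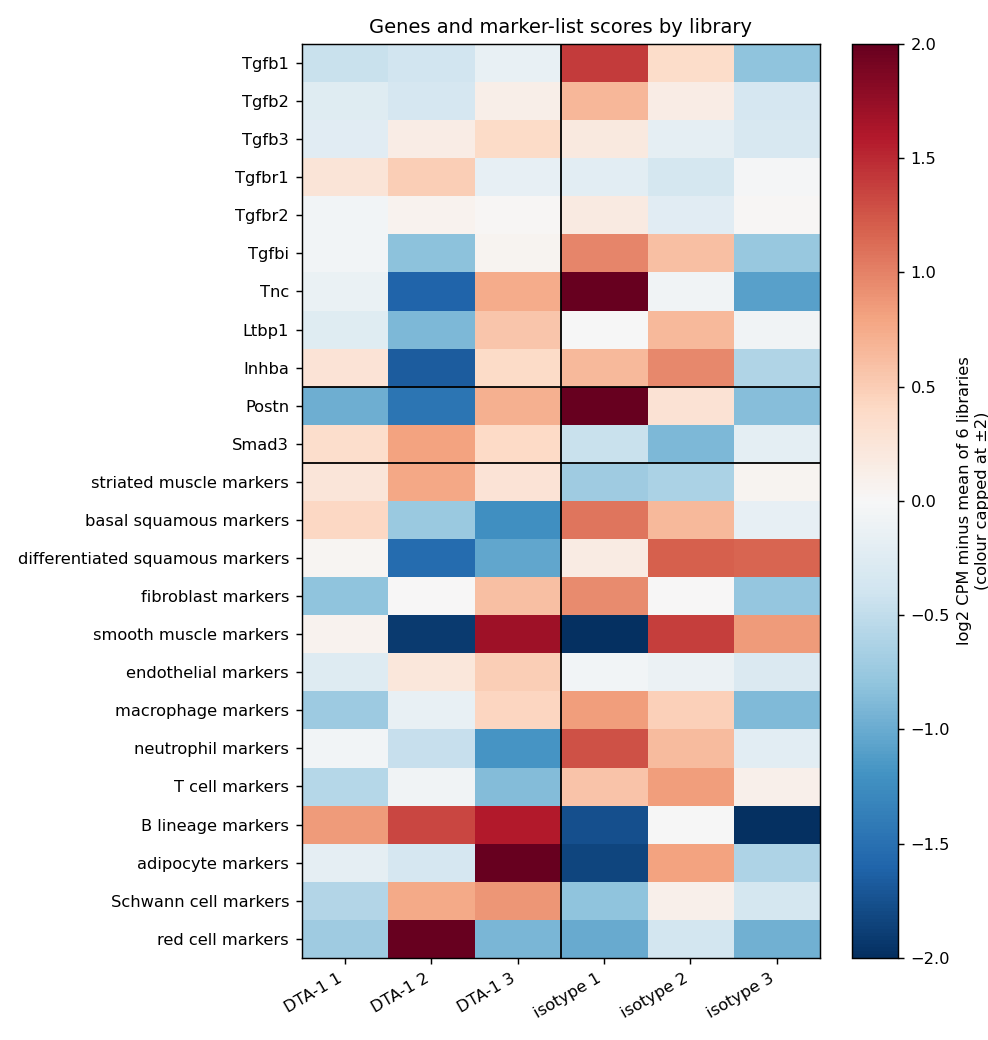
Log2 CPM of the 9 genes, of Postn and Smad3 and of the mean of each marker list, each minus its mean over the 6 libraries (color, capped at 2 in either direction), DTA-1 libraries on the left. Tgfb1, Tgfbi, Tnc and Postn are highest in isotype library 1, as are the fibroblast and macrophage scores, while Smad3 is highest in DTA-1 library 2, as is the striated muscle score.

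Outside the 9, 51 other genes of the pathway in 5 lists were tested, and 0 passed edgeR's adjusted p of 0.05. At the unadjusted level edgeR counted 2 higher (Smad3 and Tgm2) and 3 lower (Cdkn2b, Thbs1 and Skil), 9.8% of the 51, against 12.7% of all tested genes. Groups did not overlap for 7 of the 51, 2 higher and 5 lower, against 18% of all tested genes. Of the 51, 33 had fitted fold changes below 0, with a median of -0.12. That balance rested on isotype library 1, which was the highest library for 26 of the 51: without it 20 were below 0 and the median was 0.17.

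Smad3 had the smallest p of the 51, though not the largest fitted fold change: Cdkn2b, at -1.57, lay further from 0. Smad3 encodes a receptor-activated SMAD (ENSMUSG00000032402, chromosome 9), and its levels were 277, 379.1 and 285.4 CPM in DTA-1 libraries 1, 2 and 3, against 160.3, 116.5 and 189.5 CPM in isotype libraries 1, 2 and 3. The groups did not overlap, with DTA-1 library 2 highest and isotype library 2 lowest. Smad3 averaged 313.8 ± 56.7 CPM in DTA-1 and 155.4 ± 36.8 CPM in isotype tissue (SD, n = 3 each). The log2 fold change was 1.01 ± 0.24 (SE), with a 95% interval of 1.36-fold to 3-fold, an unadjusted p of 0.00399 and an adjusted p of 0.39 in edgeR, so the gene did not pass. DESeq2 called Smad3 higher (adjusted p = 0.0323), the sole call of DESeq2 among the 51. DESeq2 lost that call without isotype library 1 (adjusted p = 0.101), isotype library 2 (0.282), DTA-1 library 2 (0.368) or DTA-1 library 3 (0.122). DESeq2 kept that call without isotype library 3 (adjusted p = 0.00338) or DTA-1 library 1 (0.00376), in refits that called 6.1% and 16% of all tested genes. The DESeq2 log2 fold change of Smad3 was 1.04 with all libraries and 0.86 to 1.22 without single libraries. The striated muscle markers given above likewise gave sums that did not overlap, with DTA-1 above isotype and with 9 of the 10 having fitted fold changes above 0, and their part in the Smad3 values was not tested. The promoter window of Smad3 (GRCm38.p6, chr9:63757995-63758244, minus strand) is shown with the same marking. Any link between its letters and the fold change was not tested.
Smad3: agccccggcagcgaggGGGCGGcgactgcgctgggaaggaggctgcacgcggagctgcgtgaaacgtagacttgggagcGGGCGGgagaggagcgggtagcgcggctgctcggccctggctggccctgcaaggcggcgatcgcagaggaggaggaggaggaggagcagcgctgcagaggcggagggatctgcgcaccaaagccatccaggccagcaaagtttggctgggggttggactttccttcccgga
It was 69.2% G or C and held GGGCGG at 2 places. Like the Tgfb1 window, it held no TATAAA.

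The list of SMADs and feedback regulators, Smad3 included, gave 3 of 12 fitted fold changes above 0, with a median of -0.18, and without isotype library 1 it was 5 of 12, with a median of -0.04. Skil, a repressor of SMAD-driven transcription that is itself a target, stood at 60.7, 34.5 and 38.1 CPM in DTA-1 libraries 1, 2 and 3, against 74.4, 64.4 and 62.4 CPM in isotype libraries 1, 2 and 3. All DTA-1 libraries lay below all isotype libraries, though DTA-1 library 1 only narrowly. The log2 fold change of Skil was -0.59 ± 0.24 (SE), with an adjusted p of 0.39 in edgeR, and -0.88 with an adjusted p of 0.0445 without DTA-1 library 1, where edgeR called 3.69% of all tested genes. Tgif1, another SMAD corepressor, averaged 16.7 ± 4.73 CPM in DTA-1 and 27 ± 10.6 CPM in isotype tissue, and its groups overlapped. The log2 fold change of Tgif1 was -0.69, and -0.31 without isotype library 1. Smad2, the other receptor-activated SMAD of this branch, was the remaining gene without overlap, at 28.6 ± 4.18 CPM in DTA-1 and 34.2 ± 0.649 CPM in isotype tissue (SD, n = 3 each for both genes), and was named after its values were seen.

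**Figure D5:**
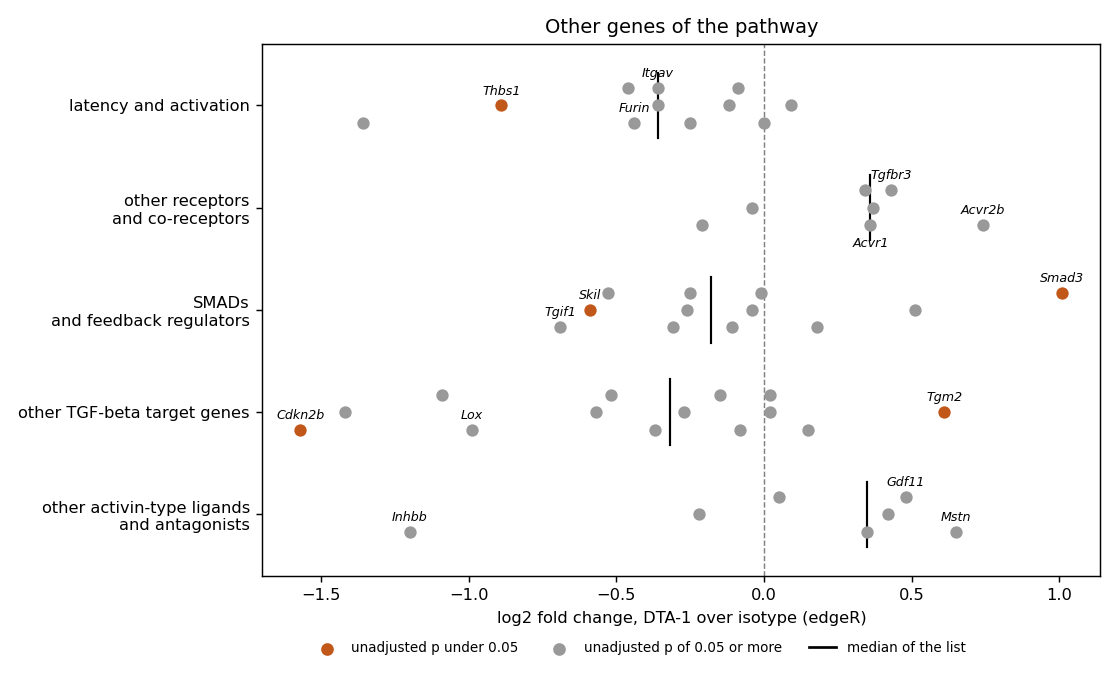
Log2 fold change, DTA-1 over isotype, of the 51 other pathway genes from edgeR in 5 lists; orange points have an unadjusted p under 0.05 and black lines are list medians. Smad3 lies furthest to the right at 1.01 and Cdkn2b furthest to the left at -1.57.

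Genes of latency and activation gave 10 of 11 fitted fold changes below 0, with a median of -0.36, and without isotype library 1 the count was 3 of 11 and the median 0.06. Thbs1, which encodes thrombospondin-1, an activator of latent TGF-beta, stood at 79.3, 52.8 and 86 CPM in tissue given DTA-1 (libraries 1, 2 and 3), against 203.6, 105.2 and 96.2 CPM in isotype libraries. The groups did not overlap, and the log2 fold change was -0.89 ± 0.34 (SE), with an adjusted p of 0.39 in edgeR. Without isotype library 1 it was -0.46. Furin, the protease that cleaves the TGF-beta propeptide, averaged 117.3 ± 23 CPM in DTA-1 and 159.1 ± 15.2 CPM in isotype tissue, again without overlap. Itgav, the integrin alpha-v chain that binds latent complexes, averaged 65.7 ± 12.5 CPM in DTA-1 and 84.3 ± 9.44 CPM in isotype tissue (SD, n = 3 each for both genes). The adjusted p in edgeR was 0.397 for Furin and 0.427 for Itgav.

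Of 14 other target genes, 10 had fitted fold changes below 0, with a median of -0.32, and without isotype library 1 it was 7 of 14, with a median of 0.08. Cdkn2b, the cyclin-dependent kinase inhibitor through which TGF-beta arrests epithelial cells, stood at 5.65, 5.56 and 4.83 CPM in DTA-1 libraries 1, 2 and 3, against 28.4, 10.8 and 8.44 CPM in isotype libraries 1, 2 and 3. The DTA-1 libraries were nearly level and all lay below the isotype libraries. The log2 fold change of Cdkn2b was -1.57 ± 0.47 (SE), with an unadjusted p of 0.0125 and adjusted p of 0.39 in edgeR and 0.0736 in DESeq2, and it was -0.83 in edgeR without isotype library 1. DESeq2 called Cdkn2b lower without isotype library 3 (log2 fold change -1.83, adjusted p = 0.00569) and without DTA-1 library 1 (-1.57, adjusted p = 0.039). Those refits called 6.1% and 16% of all tested genes, against 1.12% with all libraries. Tgm2, a matrix-crosslinking transglutaminase, had the opposite sign, at 515, 580 and 531.8 CPM in the DTA-1 group against 391.9, 266.6 and 406 CPM in the isotype group. Its groups did not overlap either, and the log2 fold change was 0.61 ± 0.23 (SE), with an adjusted p of 0.39 in edgeR. Lox, which encodes the collagen crosslinker lysyl oxidase, averaged 12.6 ± 2.6 CPM in DTA-1 and 25.1 ± 17.5 CPM in isotype tissue (SD, n = 3 each), and isotype library 1 alone stood at 45 CPM. The log2 fold change of Lox was -0.99, and -0.25 without that library.

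The other receptors and co-receptors gave 5 of 7 fitted fold changes above 0, with a median of 0.36, and none had an unadjusted edgeR p under 0.05. The median was 0.09, with 7 of 7 above 0, without DTA-1 library 3, and 0.59, with 5 of 7 above 0, without isotype library 1. Tgfbr3, which encodes betaglycan, averaged 107.9 ± 26.3 CPM in DTA-1 and 80 ± 34.3 CPM in isotype tissue. The activin type II receptor Acvr2b averaged 5.5 ± 1.41 CPM in DTA-1 and 3.29 ± 1.12 CPM in isotype tissue, and the type I receptor Acvr1 averaged 41.4 ± 8.21 CPM in DTA-1 and 32.3 ± 11 CPM in isotype tissue. All 3 overlapped between the groups. Of 7 other activin-type ligands and antagonists, 5 had fitted fold changes above 0, with a median of 0.35. Without DTA-1 library 3 it was 4 of 7, with a median of 0.16, and without isotype library 3 it was 4 of 7, with a median of 0.20. Inhbb, the activin B subunit, averaged 4.77 ± 2.34 CPM in DTA-1 and 10.9 ± 7.3 CPM in isotype tissue, where library 1 stood at 19.3 CPM, and its log2 fold change was -1.20 with all libraries and -0.48 without that library. The myostatin gene Mstn, expressed in skeletal muscle, averaged 155.4 ± 77.9 CPM in DTA-1 and 98.7 ± 51.5 CPM in isotype tissue, and Gdf11 averaged 2.52 ± 0.934 CPM in DTA-1 and 1.81 ± 0.3 CPM in isotype tissue (SD, n = 3 each throughout). Leaving out single libraries gave log2 fold changes of 0.20 to 1.17 for Mstn, 0.16 to 0.71 for Gdf11, 0.13 to 0.65 for Tgfbr3, 0.20 to 0.68 for Acvr1 and 0.59 to 1.07 for Acvr2b. The adjusted p of these 6 genes in edgeR lay between 0.406 (Inhbb) and 0.585 (Tgfbr3).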

How the data were processed

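RNA-seq was analysed from 6 esophagus libraries, 3 DTA-1 and 3 isotype, grouped by the labels. The authors deposited raw counts, whole numbers of reads per Ensembl gene in 1 file per library, without normalization. The submitters' processing notes name mm10 and list DESeq2 1.14.1, HTSeq 0.6.1p1, STAR and cutadapt 1.13. Which step each served, with what settings and strand mode, is not given in the sources used here, so reads of antisense partners cannot be told apart. Exons of Tgfb2, Tgfb3 and Tnc overlap opposite-strand genes, each counted with at most 7 reads in any library. Symbols, positions and exon lengths came from GENCODE release M21 (GRCm38, the assembly named mm10), and promoter sequences from RefSeq on GRCm38.p6.

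The test was edgeR's robust quasi-likelihood fit (edgeR 4.0.16, R 4.3.3) on treatment alone, after TMM scaling and a filterByExpr filter (total of at least 15, count of at least 10). Alternatives were limma-voom from limma 3.58.1 and DESeq2 1.42.0, beside other scalings, other filters, removal of striated muscle genes, a replicate block and each library left out. DESeq2 without each library was added after the data were seen. CPM uses TMM-scaled library sizes, log2 CPM a prior count of 2. The steps were also run on counts simulated gene by gene from the dispersions fitted to these data. That simulation held no shift shared across genes between libraries, so it cannot show how the tests behave under one.

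The genes and lists were chosen with earlier results of these data known. The 9 genes were named whatever their values. In each of the 5 pathway lists, the 3 genes with the smallest edgeR p were named, and for each of the 9 up to 2 genes nearest in pattern whose log2 CPM averaged at least 3. Marker scores are means of log2 CPM. No 2 libraries were alike within sampling noise, where noise alone gives a median chi-square per gene of 0.455. The closest pair lay across the groups, isotype library 3 and DTA-1 library 1, with a median of 4.72. Within a group the closest pair was DTA-1 libraries 2 and 3, at 6.94.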

Additional observations from a re-analysis of the deposited data

How the results depend on the processing

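With 3 libraries a group, the intervals of the 9 genes leave room for changes such as 0.238-fold to 1.2-fold for Tgfb1. Over 24 named genes with 15 refits each, direction and side of the adjusted threshold were kept in 353 of 360 results. The side could change only in DESeq2 and in edgeR without DTA-1 library 1, since 0 genes of the whole table passed in every other refit. Kept results include large moves in size, as for Tgfb1 from -0.90 to -0.20 without isotype library 1. DESeq2 without single libraries is not among these refits. There Tgfb1, Cdkn2b and Skil each passed in some refits, and Smad3 lost its call in some. The direction of Tgfbr2 reversed with library totals alone (-0.15), with no filter (-0.00) and without isotype library 2 or DTA-1 library 2, its range without single libraries being -0.07 to 0.11. That of Tnc reversed without isotype library 1, with a range of -1.64 to 0.46. Smad3 passed in DESeq2 (1.04) and Skil without DTA-1 library 1 (-0.88). The cause was not tested.

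The count of all genes past the adjusted threshold was 0 in edgeR and 180 in DESeq2, and 0 to 601 in edgeR without single libraries (601 without DTA-1 library 1). At the unadjusted level it was 2006, and 773 to 4009 without single libraries. Of the 9 genes, edgeR counted 0 at the unadjusted level, 1 with upper quartile scaling and 0 to 2 without single libraries. Of the 51 pathway genes, 0 passed the adjusted threshold in edgeR, 1 in DESeq2 and 0 to 1 without single libraries, and 5 passed the unadjusted one, with 2 to 10 without single libraries. In DESeq2 without single libraries the ranges were 41 to 2449 for all genes, 0 to 1 for the 9 and 0 to 3 for the 51. The Tgfb1 share difference ranged from -16.7 to -5.21 points without single libraries. Higher calls were 40.9% of unadjusted edgeR calls over all genes, 19% with library totals alone, where the median over all genes was -0.19 in place of -0.03, and 57% with upper quartile scaling. Over the 51, they were 2 of 5, and 2 of 7 with library totals alone.

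With the replicate number as a replicate block, edgeR called 0 of the 9 genes at either level, 0 and 6 of the 51, and 1632 genes at the unadjusted level. Same-numbered libraries did not deviate together (correlations 0.0167, -0.333 and -0.0864 for numbers 1, 2 and 3), and DTA-1 libraries 2 and 3 correlated best with isotype libraries 1 (0.163) and 2 (0.364).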
